A study of Homo sapiens with 6 samples.

Results

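The 10 genes described here encode parts of the Notch pathway: the receptors NOTCH1, NOTCH2 and NOTCH3, the ligands JAG1, JAG2 and DLL1, the protease ADAM10, and the target genes HES1, HES4 and HEY1. They were taken from the deposited expression table by Entrez Gene ID, and all 10 of 10 were found among its 18795 genes. RNA was sequenced from 2 human breast cancer cell lines of the basal-like type, HCC70 and MDA-MB-468, both grown in culture. Methanol-fixed cells of each line were stained for keratins and vimentin and split by flow cytometry into 3 populations. The K18+ population carried keratin 18, a keratin of luminal epithelium, the K18+K14+ population also carried keratin 14, a keratin of basal epithelium, and the K18+Vim+ population carried keratin 18 and vimentin, a filament protein of mesenchymal cells. Each population gave 1 library per line, so that there were 6 libraries, n = 2 per population and n = 3 per line, and no repeat culture of a line.

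Notch receptors are held in the cell surface and are switched on by ligands on a neighbouring cell. Ligand binding lets ADAM10 cut the receptor outside the membrane, gamma-secretase then cuts it inside, and the freed intracellular part enters the nucleus. There it binds RBPJ, a DNA-binding protein, and turns on repressors of the HES and HEY families. In the breast epithelium the pathway is known for its part in the choice between the basal and the luminal fate.

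Levels are given as FPKM, fragments scaled by transcript length and by library size, which allows levels of different genes to be set side by side. The authors' table does not go below 0.1 FPKM, so a gene at that value is only listed there. The number of reads behind a value is unknown, and no counting interval can be given. Of the 10 genes, 9 had a mean of at least 1 FPKM and were among the 12454 genes tested, and DLL1 was not. HEY1 was tested because of 1 library: its mean was 12.9 FPKM over the 6 libraries and 0.984 FPKM without that library.

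That library, the 1 labelled MDA-MB-468 and K18+Vim+, goes against its line label. SMAD4 stood there at 5.19 FPKM, against 0.566 and 0.310 FPKM in the other 2 libraries of the line, and RB1 at 6.68 against 0.307 and 0.269 FPKM. EGFR stood at 10.4 against 153 and 70.7 FPKM, and the epithelial gene EPCAM at 8.41 against 115 and 108 FPKM. KRT18 was 67.7 FPKM in it and 158 to 569 FPKM in the other 5 libraries. Its log2 values correlated with those of the K18+ library of its line with an r of 0.828 across genes, where the HCC70 K18+Vim+ library reached 0.970. Comparisons that include it are therefore set beside values without it. The MDA-MB-468 K18+K14+ library also stood apart, with an r of 0.919 to K18+ of its line, where HCC70 K18+K14+ reached 0.978. Its 100 highest genes held 36.3% of the summed FPKM, against 22.5 to 33.5% in the other libraries. This K18+K14+ library is kept in the fits without the K18+Vim+ libraries. Markers of other cell types were low in all 6 libraries: the 4 endothelial markers summed to 0.4 to 1.47 FPKM, with PECAM1 at the floor throughout, and the 4 immune markers to 1.01 to 7.60 FPKM, with CD68 at 5.82 to 6.61 FPKM in HCC70 and 0.1 to 0.566 FPKM in MDA-MB-468, PTPRC at 0.248 to 1.41 FPKM, and CD3E at 0.1 to 0.164 FPKM. The 6 fibroblast and mural markers summed to 4.09 to 9.82 FPKM, most of it COL1A1, and the 2 erythroid markers to 0.200 to 1.05 FPKM.

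NOTCH3 (Entrez Gene 4854) was the receptor with the highest level in every library. It stood at 69.6, 57.3 and 42.1 FPKM in the K18+, K18+K14+ and K18+Vim+ libraries of HCC70, while MDA-MB-468 gave 47.4 FPKM in K18+ and 35.0 FPKM in K18+K14+. In the MDA-MB-468-labelled K18+Vim+ library it stood at 5.20 FPKM, far under the other 5. In both lines its level was highest in K18+, lower in K18+K14+ and lowest in K18+Vim+.

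NOTCH1 (Entrez Gene 4851) followed another pattern. Its levels in HCC70, again in the order K18+, K18+K14+ and K18+Vim+, were 11.1, 14.5 and 15.2 FPKM. MDA-MB-468 gave 4.20, 3.51 and 1.502 FPKM, so that each HCC70 library lay above each MDA-MB-468 library. NOTCH2 (Entrez Gene 4853) stood at 9.44, 6.07 and 4.63 FPKM in HCC70 against 5.38, 4.71 and 3.22 FPKM in MDA-MB-468, and the lines overlapped. NOTCH2 shares near-identical sequence with the NOTCH2NL copies, and the authors' way of dividing such reads is not given, so its level is uncertain.

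Of the summed FPKM of NOTCH1, NOTCH2, NOTCH3 and NOTCH4, NOTCH3 took 67.7 to 77.0% in HCC70 and 82.7 and 77.9% in the K18+ and K18+K14+ libraries of MDA-MB-468. NOTCH1 took 12.3, 18.5 and 24.4% in the K18+, K18+K14+ and K18+Vim+ libraries of HCC70, but 7.33 and 7.82% in K18+ and K18+K14+ of MDA-MB-468. The level of NOTCH3 was thus 6.28, 3.95 and 2.78 times that of NOTCH1 in HCC70 and 11.3 and 9.97 times in those of MDA-MB-468. In the MDA-MB-468-labelled K18+Vim+ library the 4 receptors summed to 10.5 FPKM, against 44.9 to 90.5 FPKM in the others, and NOTCH3 took 49.8% of that sum.

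JAG2 (Entrez Gene 3714), a membrane-bound ligand of the Jagged type, stood at 53.4, 62.6 and 52.0 FPKM in HCC70. MDA-MB-468 gave 9.93 FPKM in K18+ and 4.17 FPKM in K18+K14+, far under HCC70. The MDA-MB-468-labelled K18+Vim+ library gave 17.7 FPKM, also under each HCC70 library. JAG1 (Entrez Gene 182), the other Jagged ligand, stood at 12.7, 10.2 and 8.32 FPKM in HCC70 while MDA-MB-468 gave 10.6 FPKM in K18+ and 7.86 FPKM in K18+K14+. The 2 lines overlapped for JAG1, and the MDA-MB-468-labelled K18+Vim+ library was lowest at 1.19 FPKM.

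JAG2 therefore made up 80.5 to 85.6% of the summed FPKM of JAG1, JAG2, DLL1, DLL3 and DLL4 in HCC70. In the MDA-MB-468 K18+ and K18+K14+ libraries it made up 44.6 and 25.6%, beside 47.5 and 48.3% for JAG1. The ratio of JAG2 to JAG1 was 4.22 to 6.25 in HCC70, 0.940 and 0.530 in those 2 libraries, and 14.9 in the MDA-MB-468-labelled K18+Vim+ library. DLL3, a Delta-like ligand known to act mainly within its own cell, was at the floor in all HCC70 libraries and took 7.01, 24.7 and 19.4% of the ligand sum in MDA-MB-468.

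DLL1 (Entrez Gene 28514), a Delta-like ligand presented to neighbouring cells, was listed at 0.1 FPKM in the 3 HCC70 libraries and in MDA-MB-468 K18+K14+, and at 0.104 FPKM in MDA-MB-468 K18+. It reached 2.32 FPKM in the MDA-MB-468-labelled K18+Vim+ library alone. Without that library no level of DLL1 above 0.104 FPKM was seen.

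**Figure D1:**
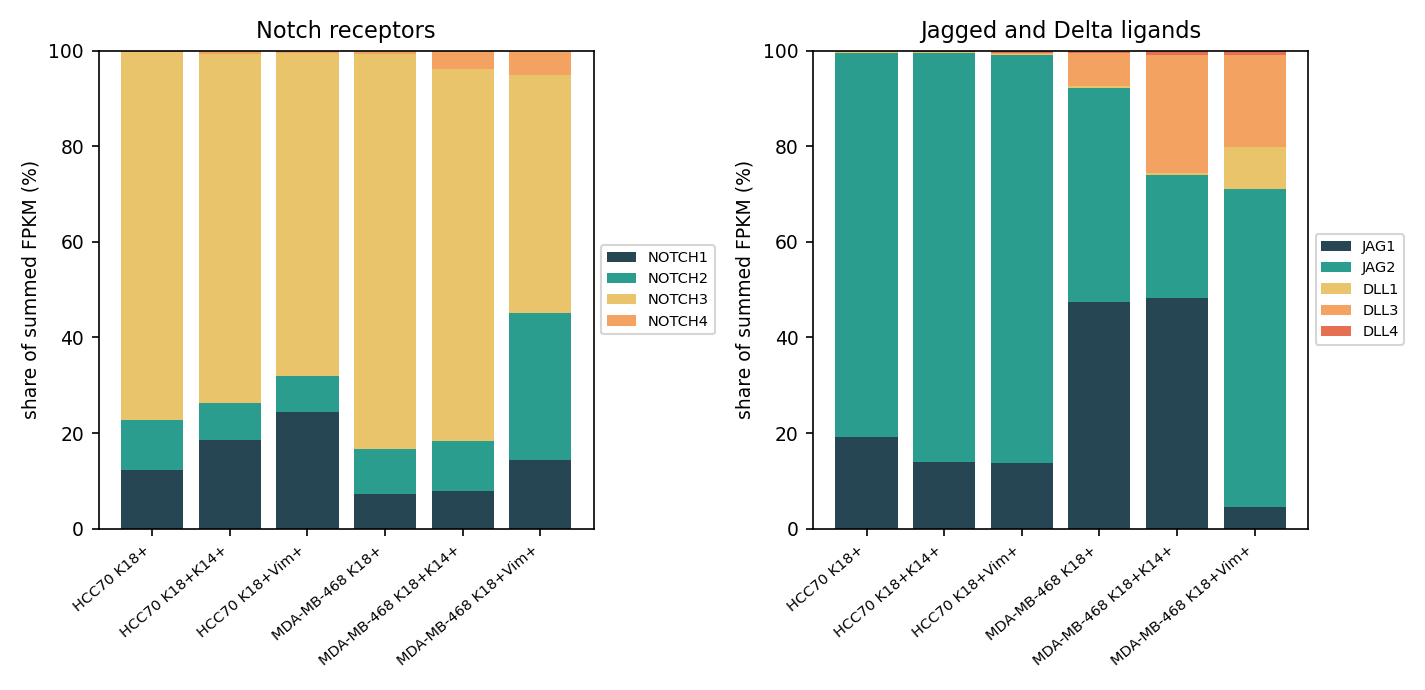
Share of each gene, as a percent of the summed FPKM of the 4 Notch receptors (left) and of the 5 Jagged and Delta ligands (right), in each of the 6 libraries; each bar adds to 100%. NOTCH3 takes 49.8 to 82.7% of the receptor sum, and JAG2 takes 80.5 to 85.6% of the ligand sum in HCC70 but 44.6 and 25.6% in the K18+ and K18+K14+ libraries of MDA-MB-468; the bar labelled MDA-MB-468 K18+Vim+, at 66.6%, is that of the library that goes against its line label.

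ADAM10 (Entrez Gene 102), which makes the first cut in a ligand-bound receptor, had one pattern in both lines. Its level was 17.7 FPKM in HCC70 K18+, against 7.41 FPKM in K18+K14+ and 7.70 FPKM in K18+Vim+. In MDA-MB-468 the same populations gave 14.4, 5.04 and 5.82 FPKM. Both K18+ libraries thus lay above all 4 libraries of the other 2 populations, also without the MDA-MB-468-labelled K18+Vim+ library.

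HES4 (Entrez Gene 57801) had the highest level of the 10 genes in every library, above 96.6 to 99.6% of the genes in the table. HES4 is a repressor of the hairy and enhancer of split family. It stood at 422, 747 and 583 FPKM in the K18+, K18+K14+ and K18+Vim+ libraries of HCC70, with 142, 348 and 144 FPKM in those of MDA-MB-468. In each line the K18+K14+ library was the highest, and all HCC70 libraries lay above all MDA-MB-468 libraries.

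HES1 (Entrez Gene 3280), the best known target of Notch signalling, varied little across 5 of the libraries. It stood at 95.1, 89.1 and 92.8 FPKM in HCC70, with 80.9 and 84.8 FPKM in MDA-MB-468 K18+ and K18+K14+. Only the MDA-MB-468-labelled K18+Vim+ library, at 30.2 FPKM, departed from that range. The level of HES4 was 4.44, 8.38 and 6.28 times that of HES1 in HCC70 and 1.75, 4.11 and 4.77 times in MDA-MB-468.

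HEY1 (Entrez Gene 23462), a repressor of the related HEY family, was low in 5 libraries and high in 1. HCC70 gave 0.604, 0.588 and 0.311 FPKM, and the MDA-MB-468 K18+ and K18+K14+ libraries gave 2.13 and 1.29 FPKM. The MDA-MB-468-labelled K18+Vim+ library gave 72.5 FPKM. Among all genes tested 24.6% had their highest level there, HEY1 with them, and 22.7% their lowest, as did 5 of the 9 genes tested here, NOTCH1, NOTCH2, NOTCH3, JAG1 and HES1. In that library HEY1 made up 26.7% of the summed FPKM of the HES and HEY genes, against 0.0415 to 0.854% in the others.

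**Figure D2:**
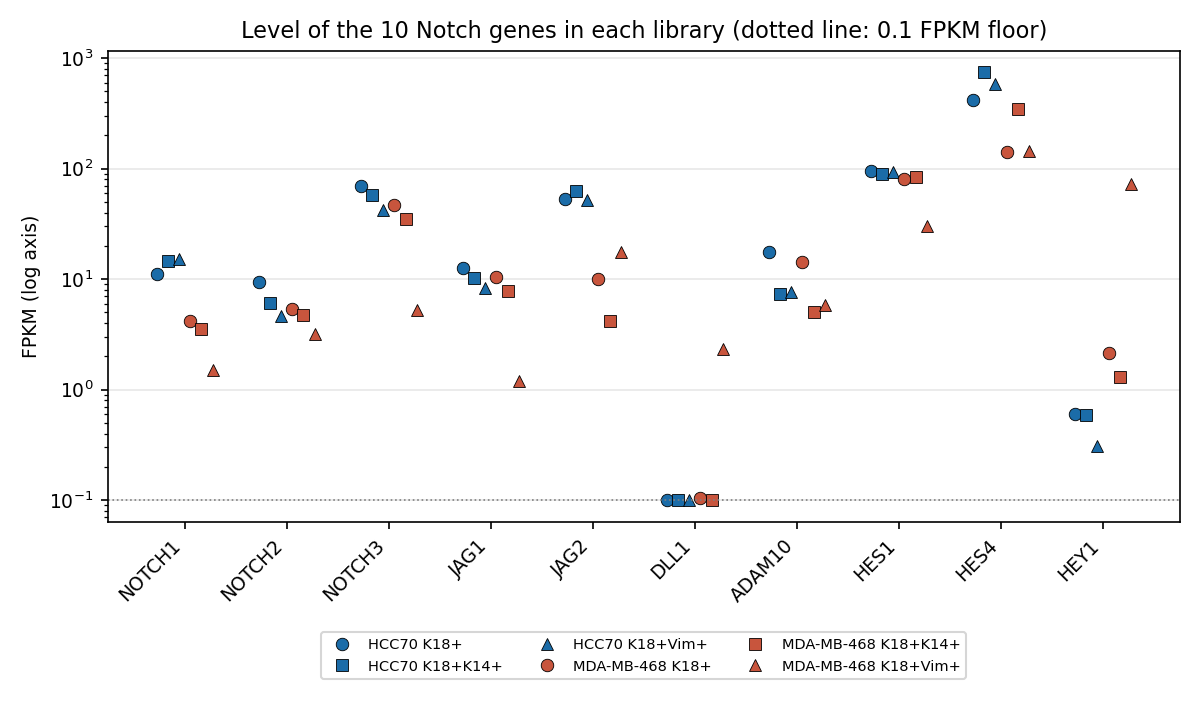
FPKM of the 10 genes (log axis) in each library; colour gives the line, the symbol gives the population, and the dotted line is the floor of 0.1 FPKM. HES4 is the highest gene in all 6 libraries, and the triangle of the MDA-MB-468-labelled K18+Vim+ library lies far above the others for HEY1 (72.5 FPKM) and far below them for NOTCH3 (5.20 FPKM) and JAG1 (1.19 FPKM).

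The promoters of HES1 and HES4 are shown because they were the 2 promoters of these genes in which the letters TGGGAA were found. These 2 HES genes also had the highest mean levels over the 6 libraries. HES2 (91.2 FPKM) lay above HES1 in HCC70 K18+K14+, however, and HEY1 above it in the MDA-MB-468-labelled K18+Vim+ library. Sequences are those of RefSeq on GRCh38.p14, 250 bases before the start site, on the strand of the gene. A window was used for 8 of the 10 genes, and none was used for DLL1 and HEY1. HES1 lies at chr3:194135898-194136147 on the plus strand and HES4 at chr1:1000098-1000347 on the minus strand. Capitals mark TGGGAA, the core letters that RBPJ is known to bind, and TTCACAC.
HES1: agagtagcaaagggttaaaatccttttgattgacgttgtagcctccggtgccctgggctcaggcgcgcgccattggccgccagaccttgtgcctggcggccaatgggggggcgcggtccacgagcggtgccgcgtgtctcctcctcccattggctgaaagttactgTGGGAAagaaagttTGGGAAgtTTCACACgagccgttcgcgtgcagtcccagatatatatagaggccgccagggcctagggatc
HES4: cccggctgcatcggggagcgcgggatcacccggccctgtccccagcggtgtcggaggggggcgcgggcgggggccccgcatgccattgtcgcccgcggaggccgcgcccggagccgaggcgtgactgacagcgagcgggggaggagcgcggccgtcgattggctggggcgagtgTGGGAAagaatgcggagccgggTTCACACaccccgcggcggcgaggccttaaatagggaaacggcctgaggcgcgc

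TGGGAA or its reverse complement TTCCCA was found in the windows of 2 of the 8 genes, HES1 and HES4, and in 24% of all 35116 promoters of the table (windows of 250 bases before to 50 after the start site, both strands). HES1 held it at 84 and 70 bases before the start site and HES4 at 76. Among the other HES and HEY genes with a window, HES3, HES5, HEY2 and HEYL also held it, and HES2, HES6 and HES7 did not. The longest run that the 2 printed sequences share is TGTGGGAAAGAA, of 12 bases, which starts 86 bases before the start site in HES1 and 78 in HES4. It holds a TGGGAA. In both genes 12 bases follow it, which differ between them, and then TTCACAC. The shared run was found in 8 of the 35116 promoters, and the run with TTCACAC at that spacing in 2, those of HES1 and HES4. These letters were picked after the sequences were compared, and a match is a description of the letters, not of binding.

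The comparison of K18+K14+ with K18+ asks which genes accompany keratin 14. ADAM10 stood 2.39-fold lower in K18+K14+ in HCC70 and 2.85-fold lower in MDA-MB-468, and HES4 stood 1.77-fold and 2.46-fold higher. The fitted log2 difference of ADAM10 was -1.25 ± 0.36 (SE, n = 2 libraries per population, limma adjusted p = 0.855). For HES4 it was 1.06 ± 0.46 (limma adjusted p = 0.855). With limma 0 of the 9 genes tested passed, against 0% of all 12454 genes tested. At an unadjusted p under 0.05, 1 of the 9 passed, ADAM10, against 3.44% of all genes. Here and below, fewer cells that hold a transcript and less of it per cell cannot be told apart.

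Log2 ratios of (FPKM + 1) within a line were also taken relative to the median of all genes tested, -0.15 for HCC70 and -0.17 for MDA-MB-468. On that scale 2 of 9 genes stood higher in K18+K14+ in both lines, HES4 and HES1, where 31.7% of all genes did so. HES1 was close to the median, at 0.05 in HCC70 and 0.24 in MDA-MB-468. ADAM10, JAG1 and NOTCH3 stood lower in both lines, 3 of 9, where again 31.7% of all genes did. The levels of JAG1 were 1.25-fold and 1.34-fold lower and those of NOTCH3 1.22-fold and 1.35-fold lower, with fitted log2 differences of -0.34 ± 0.55 (limma adjusted p = 0.919) and -0.35 ± 0.62 (limma adjusted p = 0.923). NOTCH1, NOTCH2, JAG2 and HEY1 stood on opposite sides of the median in the 2 lines. For JAG2 the level was 1.17-fold higher in HCC70 and 2.38-fold lower in MDA-MB-468.

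Transcript length moved with this comparison. Across the 12436 genes tested that have a length, the log2 ratio of K18+K14+ to K18+ fell with the longest annotated transcript, with a Spearman rho of -0.231 for HCC70 and -0.303 for MDA-MB-468. ADAM10 has the longest transcript of the 10 genes, at 11431 bases, and HES4 the shortest, at 1040 bases. After a correction for length the fitted log2 difference was -0.86 for ADAM10 (limma adjusted p = 0.980) and 0.79 for HES4 (limma adjusted p = 0.980), so that both kept their direction. For NOTCH3, with 8666 bases, it was 0.03, for NOTCH2, with 11389 bases, also 0.03, and for JAG1, with 5940 bases, -0.0087, so that all 3 were close to 0.

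**Figure D3:**
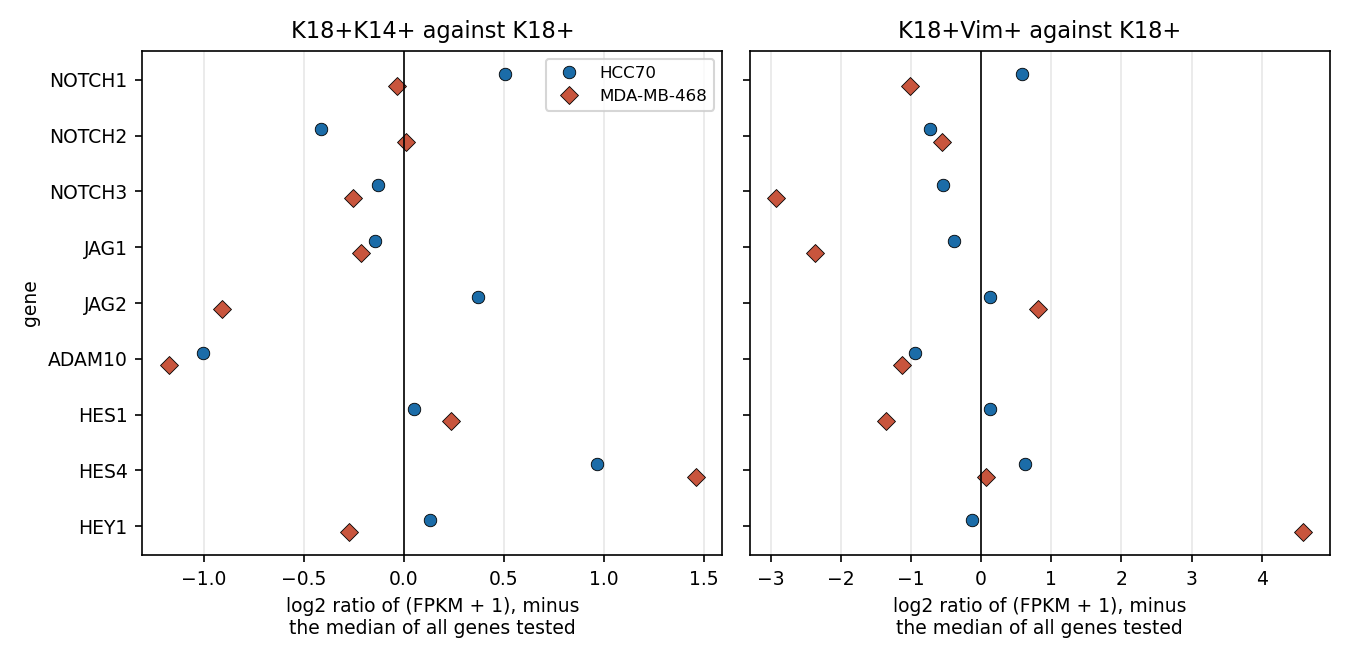
Log2 ratio of (FPKM + 1) in K18+K14+ (left) and K18+Vim+ (right) against K18+ for the 9 genes tested, minus the median of all genes tested; circles are HCC70, diamonds MDA-MB-468, and 0 is the median gene. ADAM10 lies at -1.01 and -1.18 on the left and at -0.94 and -1.13 on the right. HEY1 lies at -0.13 in HCC70 and 4.595 in MDA-MB-468 on the right. All diamonds on the right rest on the MDA-MB-468-labelled K18+Vim+ library, which goes against its line label.

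The comparison of K18+Vim+ with K18+ asks which genes accompany vimentin. In HCC70, whose library shows no conflict with its label, ADAM10 stood 2.29-fold, NOTCH2 2.04-fold, NOTCH3 1.65-fold and JAG1 1.52-fold lower in K18+Vim+. In the MDA-MB-468-labelled K18+Vim+ library the same 4 genes stood 2.47-fold, 1.67-fold, 9.10-fold and 8.92-fold lower. Relative to the median of all genes these 4 of 9 stood lower in both lines, where 25.8% of all genes did so, and HES4 and JAG2, 2 of 9, stood higher, where also 25.8% did. The level of JAG2 itself was 1.03-fold lower in HCC70 and 1.78-fold higher in the MDA-MB-468-labelled library. HES4 was 1.38-fold higher in HCC70 and 1.02-fold higher in the library labelled MDA-MB-468.

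With limma 0 of the 9 genes passed in K18+Vim+ against K18+, against 0% of all genes tested. At an unadjusted p under 0.05 there were 3 of 9, against 4.27% of all genes. These were NOTCH3, with a fitted log2 difference of -1.84 ± 0.62, JAG1, with -1.48 ± 0.55, and ADAM10, with -1.14 ± 0.36 (SE, n = 2 libraries per population, limma adjusted p = 0.863 for each). Without the MDA-MB-468-labelled K18+Vim+ library the difference was -0.75 for NOTCH3 (limma adjusted p = 0.904), -0.57 for JAG1 (limma adjusted p = 0.913) and -1.15 for ADAM10 (limma adjusted p = 0.894). The difference of ADAM10 was thus as large without that library, and those of NOTCH3 and JAG1 were smaller. The log2 ratio fell with transcript length here too, with a Spearman rho of -0.155 for HCC70 and -0.066 for MDA-MB-468. After the length correction, over all 6 libraries, the difference was -1.62 for NOTCH3, -1.30 for JAG1, -0.92 for ADAM10 and -0.52 for NOTCH2. Without the HCC70 K18+Vim+ library, where the population is the doubtful library alone, the log2 difference was -2.93 for NOTCH3, -2.38 for JAG1 and 4.66 for HEY1. HEY1 was among the genes tested only because of that doubtful library, so its difference in this fit is not separate evidence. In that fit the lone library is assumed to vary like the other groups.

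Relative to the median gene, HES1, NOTCH1 and HEY1 went opposite ways in the 2 lines. By level, HES1 was 1.02-fold lower in HCC70 K18+Vim+ than in K18+, and 2.68-fold lower in the library labelled MDA-MB-468. NOTCH1 was 1.37-fold higher in HCC70 and 2.80-fold lower in the library labelled MDA-MB-468. HEY1 was 1.94-fold lower in HCC70 and 34.1-fold higher in that library.

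K18+Vim+ against K18+K14+ shares its libraries with the other 2 comparisons. ADAM10 stood at 1.04-fold in HCC70 and 1.15-fold in the MDA-MB-468-labelled library, with a fitted log2 difference of 0.11 ± 0.36 (limma adjusted p = 0.922), which changed sign after quantile normalization and after the length correction. HES4 stood 1.28-fold lower in K18+Vim+ in HCC70 and 2.42-fold lower in the library labelled MDA-MB-468 (fitted log2 difference -0.81 ± 0.46, limma adjusted p = 0.682). NOTCH3 stood 1.36-fold and 6.73-fold lower (fitted log2 difference -1.49 ± 0.62, limma adjusted p = 0.682). JAG1 and NOTCH2 also stood lower in both lines, which makes 4 of 9, and ADAM10 alone stood higher, 1 of 9, both relative to the median gene, where 25.3% of all genes fell in each class. Without the MDA-MB-468-labelled K18+Vim+ library the log2 difference was -0.40 for NOTCH3, -0.24 for JAG1 and -0.47 for HES4. With limma 0 of the 9 passed, against 0% of all genes, and at an unadjusted p under 0.05 there were 0 of 9, against 5.46% of all genes.

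The comparison of the lines gave the differences that passed. The 3 libraries of a line are its 3 sorted populations, without a repeat culture, so the p-values do not measure the spread between cultures. JAG2, NOTCH1 and HES4 were lower in MDA-MB-468 than in HCC70. JAG2 was higher in HCC70 by 5.38-fold in K18+, 15.0-fold in K18+K14+ and 2.95-fold in K18+Vim+. NOTCH1 was higher in HCC70 by 2.64-fold, 4.13-fold and 10.1-fold in the same order, and HES4 by 2.98-fold, 2.14-fold and 4.05-fold. The fitted log2 difference, MDA-MB-468 minus HCC70, was -2.48 ± 0.46 for JAG2 (SE, n = 3 libraries per line, limma adjusted p = 0.0259), -1.90 ± 0.38 for NOTCH1 (limma adjusted p = 0.0311) and -1.56 ± 0.38 for HES4 (limma adjusted p = 0.0467). These were 3 of the 9 genes tested, all lower in MDA-MB-468, where 12.2% of all genes passed, 7.68% lower and 4.54% higher. At an unadjusted p under 0.05 there were 5 of the 9, with NOTCH3 and HEY1 added, against 33% of all genes. HEY1 was tested only because of its level in the MDA-MB-468-labelled K18+Vim+ library.

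Libraries of 1 line did not overlap those of the other for 5 of the 9 genes. HCC70 was higher in all libraries for NOTCH1, JAG2, HES1 and HES4, where 21% of all genes did so, and MDA-MB-468 for HEY1, where 20.1% did. HEY1 is among the 9 only because of its level in the MDA-MB-468-labelled K18+Vim+ library, so its place in these counts is not separate evidence. Over the 4 K18+ and K18+K14+ libraries, NOTCH2 and NOTCH3 joined the first class, which made 6 of 9 against 32.2% of all genes, and HEY1 alone stayed in the second, against 30.4%. ADAM10 and JAG1 overlapped over both sets of libraries. The median fitted log2 difference of the 9 genes was -0.89, beside 0.01 for all genes tested, and without both K18+Vim+ libraries it was -0.51, beside -0.05.

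Of the 3 calls, 2 held without both K18+Vim+ libraries. The log2 difference was then -2.97 ± 0.40 for JAG2 (limma adjusted p = 0.00134) and -1.50 ± 0.35 for NOTCH1 (limma adjusted p = 0.0150), 2 of 9 genes, where 27% of all genes passed, 15.5% lower and 11.5% higher. For HES4 it was -1.33 ± 0.48 (limma adjusted p = 0.0691). NOTCH3 went from -1.35 ± 0.51 (limma adjusted p = 0.123) to -0.62 (limma adjusted p = 0.212), and HEY1 from 2.43 ± 0.99 (limma adjusted p = 0.145) to 0.75 (limma adjusted p = 0.104). The remaining 4 genes did not pass in either fit, with differences over the 6 libraries and over the 4 of -0.89 and -0.29 for JAG1, -0.63 and -0.15 for HES1, -0.48 and -0.51 for NOTCH2, and -0.37 and -0.38 for ADAM10. All 3 calls were lost when the K18+ or the K18+K14+ library of either line was left out, with limma adjusted p from 0.0756 to 0.173, and when no filter on low values was set, with 0.154 to 0.168.

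**Figure D4:**
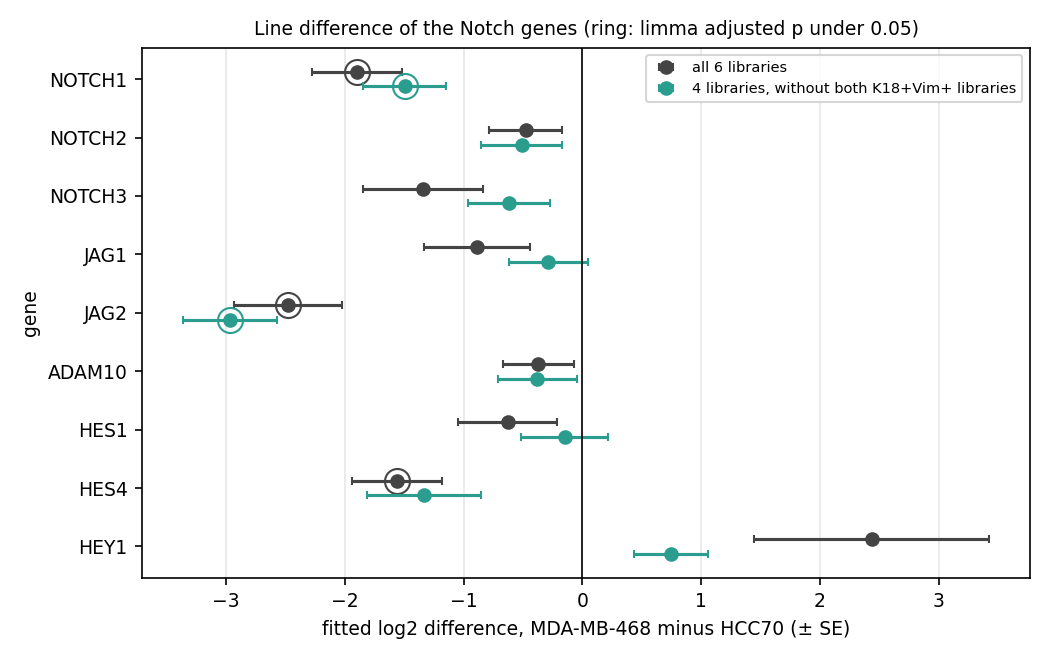
Fitted log2 difference between the lines, MDA-MB-468 minus HCC70, for the 9 genes tested; points are limma estimates, bars are 1 SE, dark points use all 6 libraries, green points the 4 without K18+Vim+, and a ring marks a limma adjusted p under 0.05. JAG2 and NOTCH1 are ringed in both fits, at -2.48 and -2.97 and at -1.90 and -1.50, and HES4 in the first, at -1.56.

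The rest of the pathway was read from a list of 69 further genes, of which 68 were in the table and 60 were tested. Between the lines 9 of the 60 passed, 5 lower and 4 higher in MDA-MB-468, where 12.2% of all genes passed. The 5 lower ones were 3 that act downstream of Notch or belong to its target families and 2 that act on the receptor. NRARP, a feedback inhibitor that Notch switches on, stood at 69.4, 75.5 and 35.5 FPKM in HCC70 against 2.75, 1.97 and 10.0 FPKM in MDA-MB-468 (log2 difference -3.55 ± 0.59, limma adjusted p = 0.0203). The family repressor HES2 stood at 66.5, 91.2 and 55.8 FPKM in HCC70 against 5.23, 9.60 and 2.94 FPKM (log2 difference -3.47 ± 0.32, limma adjusted p = 0.00473). HEY2, of the HEY family, stood at 11.7, 16.7 and 8.22 FPKM in HCC70 against 0.797, 0.518 and 3.78 FPKM (log2 difference -2.44 ± 0.52, limma adjusted p = 0.0356).

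For these 3 genes every HCC70 library lay above every MDA-MB-468 library. So it was for 21% of all genes tested and for 15 of the 60 further genes. These 3 genes had passed on the same comparison of the lines, so this is not separate evidence. DTX1, a ubiquitin ligase of the Deltex family that binds the receptor, stood at 2.35 to 4.24 FPKM in HCC70 and 0.1 to 0.720 FPKM in MDA-MB-468. NUMB, an adaptor known as an inhibitor of Notch, stood at 22.9 to 29.9 FPKM and 6.63 to 12.9 FPKM. Their log2 differences were -1.73 ± 0.40 (limma adjusted p = 0.0426) and -1.33 ± 0.31 (limma adjusted p = 0.0427). DTX1 reached the mean of 1 FPKM only through the HCC70 libraries, where it is high, so its call is not independent of the filter.

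The 4 genes higher in MDA-MB-468 were RBPJ, LFNG, DLL3 and TLE3. LFNG and DLL3 reached the mean of 1 FPKM only through the MDA-MB-468 libraries, where they are high, so their calls are not independent of the filter. RBPJ, the DNA-binding protein through which all receptors act, stood at 10.999, 13.3 and 15.4 FPKM in HCC70 against 38.2, 79.2 and 59.8 FPKM in MDA-MB-468 (log2 difference 2.03 ± 0.33, limma adjusted p = 0.0195). LFNG, a glycosyltransferase that changes which ligands a receptor answers to, stood at 0.1 to 0.169 FPKM in HCC70 and at 3.88, 8.06 and 1.15 FPKM in MDA-MB-468 (log2 difference 2.02 ± 0.49, limma adjusted p = 0.0455, and 2.60 without both K18+Vim+ libraries). DLL3 was listed at 0.1 FPKM in all 3 HCC70 libraries and at 1.56, 4.03 and 5.14 FPKM in MDA-MB-468 (log2 difference 1.96 ± 0.40, limma adjusted p = 0.0325). TLE3, a corepressor that HES proteins recruit, stood at 15.2 to 23.5 FPKM in HCC70 and at 344 and 186 FPKM in MDA-MB-468 K18+ and K18+K14+, but at 38.4 FPKM in the library labelled K18+Vim+ (log2 difference 2.75 ± 0.66, limma adjusted p = 0.0447, and 3.78 without both K18+Vim+ libraries). For none of the 4 did a library of 1 line overlap those of the other. MDA-MB-468 was higher in all libraries for 20.1% of all genes tested and for 8 of the 60 further genes. These 4 genes had passed on the same comparison of the lines, so this is not separate evidence. HES2 passed also when any 1 of the 6 libraries was left out. The other 8 of the 9 were lost without the K18+ or the K18+K14+ library of either line, where 1 or 2 of the 60 passed, and with no filter on low values 0 passed, HES2 included. LFNG was also lost with a pseudocount of 5 FPKM, with quantile normalization and with the length correction, and NUMB with quantile normalization.

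Without both K18+Vim+ libraries 16 of the 60 passed, 10 lower and 6 higher in MDA-MB-468, where 27% of all genes passed. The log2 difference of NRARP was then -4.46 (limma adjusted p = 8.49e-05), that of HES2 -3.28 (limma adjusted p = 0.000365) and that of HEY2 -3.18 (limma adjusted p = 0.000542). HES5, another target of Notch, was among the genes added: it stood at 2.73, 2.55 and 1.41 FPKM in HCC70 and was listed at 0.1 FPKM in MDA-MB-468 K18+ and K18+K14+, with 1.73 FPKM in the library labelled K18+Vim+ (log2 difference -1.73, limma adjusted p = 0.00429). HES5 was among the genes tested only through its HCC70 levels. Also added, and lower in MDA-MB-468 over the K18+ and K18+K14+ libraries, were the corepressor SPEN, the gamma-secretase subunit NCSTN and the ubiquitin ligase DTX3L. FURIN, the protease that cuts the receptor precursor, was lower too, and the endocytic kinase AAK1 and the corepressor TLE2 were higher. Over all 6 libraries the lines overlapped for SPEN, NCSTN, AAK1 and TLE2, but not for FURIN and DTX3L. Those 2 were higher in every HCC70 library, as were 21% of all genes tested. In MDA-MB-468 K18+ and K18+K14+, SPEN stood at 14.6 and 1.42 FPKM, NCSTN at 43.9 and 3.62 FPKM, and AAK1 at 7.51 and 86.0 FPKM. TLE2 stood at 46.5 FPKM in HCC70 K18+Vim+ and at 5.18 FPKM in the MDA-MB-468-labelled K18+Vim+ library.

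**Figure D5:**
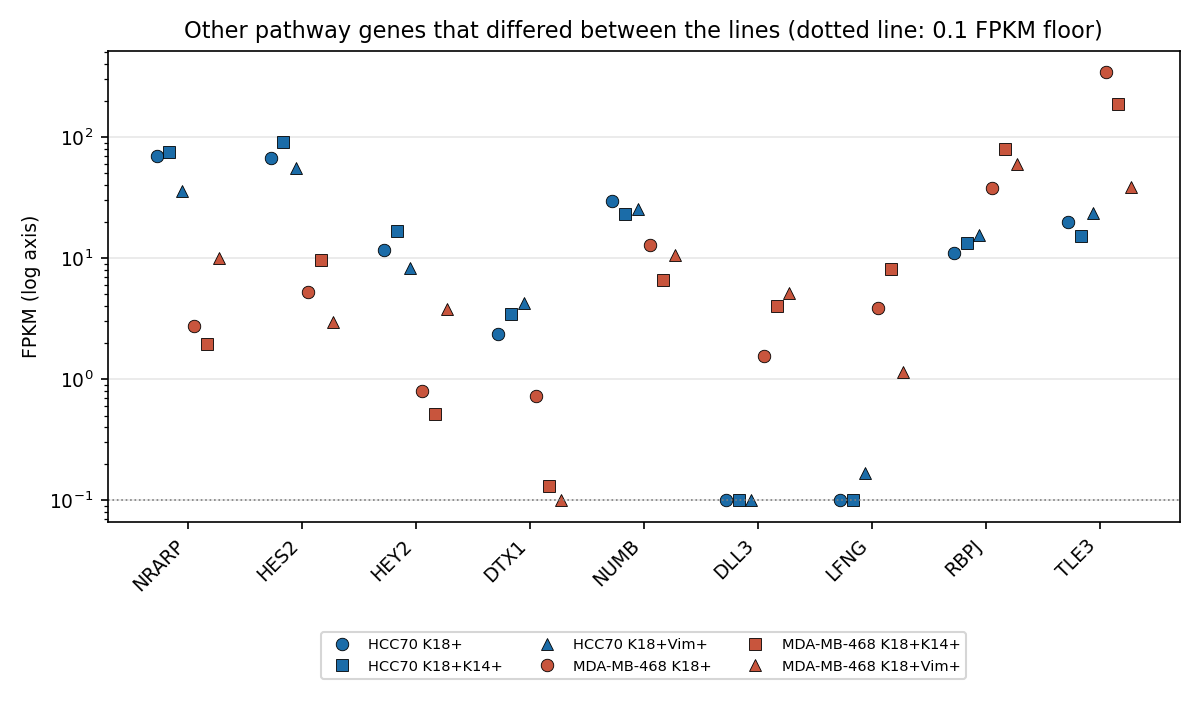
FPKM (log axis) of the 9 further pathway genes whose difference between the lines passed over all 6 libraries; colour gives the line, the symbol the population, and the dotted line the floor of 0.1 FPKM. NRARP, HES2, HEY2, DTX1 and NUMB are higher in every HCC70 library, and DLL3, LFNG, RBPJ and TLE3 in every MDA-MB-468 library; for TLE3 the MDA-MB-468-labelled K18+Vim+ library, at 38.4 FPKM, lies close to the 23.5 FPKM of HCC70 K18+Vim+. Of all genes tested, 21% are higher in every HCC70 library and 20.1% in every MDA-MB-468 library.

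Between populations 0 of the 60 further genes passed in each of the 3 comparisons with limma, and 3, 2 and 6 had an unadjusted p under 0.05 in K18+K14+ against K18+, K18+Vim+ against K18+ and K18+Vim+ against K18+K14+, beside 3.44%, 4.27% and 5.46% of all genes. In K18+K14+ against K18+, 26 stood higher in both lines and 20 lower, relative to the median of all genes, where 31.7% of all genes fell in each class. The median was itself negative, so this class is not a rise in level for every gene. DLL3 and LFNG are in the higher class with HCC70 at the floor. AAK1, GATA3, NCOR1, LNX1 and TLE1 are in it though their level fell in at least 1 line. Among the other HES and HEY genes tested 4 of 5 were in the higher class and 0 in the lower, HES5 only relative to the median, since its level was 1.07-fold lower in HCC70 and at the floor in both MDA-MB-468 libraries. HES2 was 1.37-fold and 1.83-fold higher in HCC70 and MDA-MB-468, HES6 1.68-fold and 1.30-fold, and HES7 1.28-fold and 1.28-fold. MIB1, the ubiquitin ligase that makes ligands active, was 2.26-fold and 2.25-fold lower. Its transcript, at 9576 bases, is also long. FBXW7, which marks the freed receptor for breakdown, was 1.86-fold and 2.85-fold lower, and the receptor's ubiquitin ligase ITCH 1.51-fold and 2.11-fold. NCSTN was 1.64-fold and 12.1-fold lower and the corepressor CTBP2 1.83-fold and 2.65-fold, while TLE2 was 1.58-fold and 1.84-fold higher. Of the other lower genes, CTBP2, ITCH and FBXW7 have transcripts of 6939, 6401 and 5653 bases, and NCSTN of 3031 bases. The higher genes HES2, TLE2, HES7 and HES6 have 4262, 2705, 1674 and 1600 bases. Length-corrected values are not given for these genes.

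In K18+Vim+ against K18+, 10 of the 60 stood higher in both lines and 16 lower, where 25.8% of all genes fell in each class. APH1B, a gamma-secretase subunit, was 3.03-fold higher in HCC70 and 6.21-fold higher in the library labelled MDA-MB-468, and RBPJ 1.40-fold and 1.57-fold higher. CCND1, which encodes cyclin D1, was 1.56-fold and 9.49-fold lower, and the coactivator MAML2 1.83-fold and 11.7-fold. The demethylase KDM5A was 1.70-fold and 1.76-fold lower and ADAM17, a second receptor-cutting protease, 1.32-fold and 2.18-fold.

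In K18+Vim+ against K18+K14+, 14 stood higher in both lines and 14 lower, where 25.3% of all genes fell in each class. These classes are again relative to the median, and DLL3 is in the higher one with HCC70 at the floor. CTBP2 was 3.12-fold and 1.86-fold higher. CCND1 was 2.67-fold and 6.17-fold lower, HES2 1.63-fold and 3.27-fold, and HES6 4.05-fold and 1.46-fold. MFNG, a glycosyltransferase of the same family as LFNG, was 1.78-fold lower in HCC70 and 38.0-fold lower in the library labelled MDA-MB-468.

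The likeness of the 9 genes to each other and to all genes tested was described by Pearson's r of log2(FPKM + 1) over the 6 libraries, which share 2 lines and 1 doubtful library, so that no p is given. A nearest gene is the highest r among all 12454 genes tested, so a value near 1 was picked and is not evidence of a link. An r over 5 libraries reuses part of the same 6. NOTCH3 and JAG1 were among each other's 3 nearest genes, with an r of 0.995 over 6 libraries and 0.935 over the 5 without the MDA-MB-468-labelled K18+Vim+ library. The gene nearest to JAG1 was MPPE1, with an r of 0.998 over 6 libraries and 0.977 over 5, which was also nearest to NOTCH3, with 0.997 and 0.956. NOTCH1 and JAG2 gave an r of 0.774 over 6 libraries and 0.973 over 5. HES1 and NOTCH3 gave 0.974 over 6 but 0.521 over 5, and HES1 and JAG1 0.972 over 6 but 0.271 over 5.

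With r over 6 libraries and then over those 5, the nearest gene was DCST2 for NOTCH1 (0.999 and 0.999), VPS4B for NOTCH2 (0.988 and 0.980) and RUSF1 for JAG2 (0.997 and 0.997). It was ARRDC3 for ADAM10 (0.992 and 0.995), DNASE1 for HES4 (0.998 and 0.997) and FHL1 for HEY1 (0.998 and 0.960). For HES1 it was RGS3, with 0.997 over 6 libraries but 0.840 over 5. HES1 and HEY1 gave an r of -0.995 over 6 libraries and -0.916 over 5. Over those 5, HES1 lay between 80.9 and 95.1 FPKM and HEY1 between 0.311 and 2.13 FPKM, so that r rests on small differences.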

How the data were processed

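The authors deposited 1 table of FPKM, with Entrez Gene IDs as rows. Per the submitters' processing notes, reads were aligned with TopHat2 to GRCh37, and per the labels' protocols RNA came from methanol-fixed cells through a kit for fixed tissue. The sources used here give no counting tool, annotation, lane or date, so a batch and a library cannot be told apart. Values end at 0.1 FPKM below and at 10000 FPKM above, and depth is unknown. Of 18807 rows, 7 with a blank value were dropped, and of the 2 rows of each of 5 IDs that with the higher mean was used.

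The test was limma (version 3.58.1, under R 4.3.3; lmFit and eBayes, trend on) of log2(FPKM + 1) for genes whose mean reached 1 FPKM, with terms for population and cell line, which leaves 2 residual degrees of freedom. P-values were adjusted by Benjamini-Hochberg over all genes tested at a threshold of 0.05. Fitted differences and log2 ratios use log2(FPKM + 1), so that those of low genes come out too small, while folds are ratios of FPKM. The populations are paired by cell line per the labels. The spread behind a p-value is that between these libraries. The 10 genes, the pathway list and the tests were chosen with earlier results of these data known. Further pathway genes were named if they passed, and otherwise up to 6 per comparison with the same sign in both lines and the largest smaller log2 ratio. 1 gene that this rule names is not reported here. HES2, HES6 and HES7 in K18+K14+ against K18+ and the genes added without the K18+Vim+ libraries were named after their values were seen. Lengths are those of the longest GENCODE transcript, known for 99.9% of the genes tested. The fit was tested on simulated data.

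Alternatives were no block for cell line, pseudocounts of 0.1 and 5 FPKM, no filter and a minimum mean of 5 FPKM, quantile normalization, limma without trend, a length correction (a lowess curve per library), only the 4 libraries compared, no K18+Vim+ libraries, and leaving out each library in turn. Software was Python 3.11.15, numpy 2.4.6, pandas 2.3.3 and, for figures, matplotlib 3.10.9.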

Additional observations from a re-analysis of the deposited data

Results flagged for a closer look

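Some of the 9 genes tested went opposite ways in the 2 lines relative to the median of all genes. Each value below is the log2 ratio in MDA-MB-468 minus that in HCC70, with 1 library per line and population, so the difference itself was not tested. In K18+K14+ against K18+ the values were -1.28 for JAG2 (0.37 in HCC70 and -0.91 in MDA-MB-468), -0.54 for NOTCH1 (0.50 and -0.04), 0.43 for NOTCH2 (-0.42 and 0.01) and -0.41 for HEY1 (0.13 and -0.28). For NOTCH1 and NOTCH2 the MDA-MB-468 ratio was almost at the median, and HEY1 was near 1 FPKM or under it in 3 of the 4 libraries.

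In K18+Vim+ against K18+ the values were 4.72 for HEY1 (-0.13 and 4.595), -1.60 for NOTCH1 (0.58 and -1.02) and -1.48 for HES1 (0.13 and -1.35). In K18+Vim+ against K18+K14+ they were 5.15 for HEY1 (-0.26 and 4.89), 1.98 for JAG2 (-0.25 and 1.74), -1.65 for HES1 (0.07 and -1.58) and -1.05 for NOTCH1 (0.08 and -0.97). These 7 values all rest on the MDA-MB-468-labelled K18+Vim+ library, and without it there is none to give.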

How the results depend on the processing

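Of 120 counts recomputed under the alternatives, 101 stayed within 1.5 times the reported count and 19 did not. Between the lines, no filter on low values left 0 of the 9 genes and 0 of all genes past the threshold in limma (3993 genes at an unadjusted p under 0.05). Without both K18+Vim+ libraries 3366 genes passed, against 1522. Leaving out 1 library gave 206 to 3360 genes and 0 to 2 of the 9, with 0 without any of the K18+ or K18+K14+ libraries; the cause was not tested, and 1 residual degree of freedom remains. In the population comparisons, leaving out 1 library gave 0 to 1 genes for K18+K14+ against K18+, 0 to 1500 genes and 0 to 3 of the 9 for K18+Vim+ against K18+, and 0 to 1988 genes and 0 to 3 of the 9 for K18+Vim+ against K18+K14+; the high counts came without the HCC70 K18+Vim+ library, where the lone library of that population is assumed to vary like the others. HEY1, which was tested only because of the MDA-MB-468-labelled K18+Vim+ library, is among the 3 of the 9 in both of these comparisons. Without the replicate block for cell line every population count was 0, as reported.

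Of 371 fitted log2 differences recomputed, 337 kept their direction and their side of the threshold, 19 were no longer past it, 4 came to pass it and 11 changed sign. For K18+K14+ against K18+, NOTCH3 was 0.027 with the length correction and -0.95 to 0.25 leaving out 1 library, JAG1 -0.82 to 0.15 and HES1 -0.43 to 0.41. For K18+Vim+ against K18+, JAG2 was -0.36 to 1.10 and HES4 -0.092 to 0.58 leaving out 1 library. For K18+Vim+ against K18+K14+, ADAM10 was -0.0009 after quantile normalization and -0.056 with the length correction. HES4 between the lines also missed the threshold with a pseudocount of 5 FPKM (limma adjusted p = 0.0502). Depth is unknown, so no limit on genes at the floor can be given.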
